A study of Mus musculus with 14 samples.

Results

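Coagulation and fibrinolysis genes were followed in 14 oligonucleotide arrays of mouse spleen cells. The 10 genes were 3 anticoagulants (Tfpi, Thbd and Procr), 4 procoagulants (F3, F8, Vwf and F13a1) and 3 genes of fibrinolysis (Plat, Plau and Plaur). A probe set, the group of oligonucleotides that reports 1 transcript, was taken as a member where its only gene symbol in the array annotation was 1 of these names. This gave 18 of 36899 probe sets, with 11 on array set A, 3 on B and 4 on C. All 10 genes had at least 1 probe set, and 4 genes had probe sets on more than 1 array set. Per the labels, the cells were primary splenocytes that had either been enriched for follicular dendritic cells (FDC-E) or depleted of them (FDC-D). Follicular dendritic cells are the stroma of the B cell follicle and display intact antigen to B cells. Sets A and C each held 2 FDC-D and 3 FDC-E arrays, and set B held 2 of each, without FDC-E replicate 1. No source used here gives the mouse strain, age, any treatment or the isolation procedure. Since no label ties the replicates of a group to different animals, the p-values cover only the spread of these particular samples, and that spread may be technical.

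Clotting starts when tissue factor (F3) meets factor VII of the plasma, and factor VIII (F8) amplifies the formation of thrombin. Von Willebrand factor (Vwf), stored in endothelial cells and platelets, carries factor VIII and tethers platelets, and factor XIII (F13a1) crosslinks fibrin. Endothelium holds clotting in check with tissue factor pathway inhibitor (Tfpi), with thrombomodulin (Thbd), which turns thrombin into an activator of protein C, and with the endothelial protein C receptor (Procr). Fibrin is dissolved by plasmin, made by the activators of Plat (tissue type) and Plau (urokinase), and Plaur is the urokinase receptor.

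The bases before the start site are shown for Tfpi and Procr, anticoagulants that rose, for F3, the initiator of clotting, and for Plaur, which fell. The RefSeq table used here (GRCm38.p6) held a window for 6 of the 10 genes. The 250 bases before the start site lie at chr2:84476760-84477009 on the minus strand for Tfpi, chr2:155750967-155751216 on the plus strand for Procr, chr3:121723287-121723536 on the plus strand for F3 and chr7:24462233-24462482 on the plus strand for Plaur. The table lists 2 starts for Tfpi, and the one farthest upstream is shown. Each sequence is written 5′ to 3′ on the strand of the gene, and capitals mark matches to any of 6 searched motifs.
Tfpi: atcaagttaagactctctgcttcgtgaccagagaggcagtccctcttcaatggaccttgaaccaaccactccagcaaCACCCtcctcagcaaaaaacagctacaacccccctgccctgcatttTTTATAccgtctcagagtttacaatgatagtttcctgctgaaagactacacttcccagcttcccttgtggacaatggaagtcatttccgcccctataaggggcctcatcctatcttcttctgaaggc
Procr: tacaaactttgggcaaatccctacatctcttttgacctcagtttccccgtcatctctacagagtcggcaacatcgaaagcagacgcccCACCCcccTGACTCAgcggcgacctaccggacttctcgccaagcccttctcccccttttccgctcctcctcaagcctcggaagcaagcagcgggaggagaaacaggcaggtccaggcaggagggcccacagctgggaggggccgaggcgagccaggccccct
F3: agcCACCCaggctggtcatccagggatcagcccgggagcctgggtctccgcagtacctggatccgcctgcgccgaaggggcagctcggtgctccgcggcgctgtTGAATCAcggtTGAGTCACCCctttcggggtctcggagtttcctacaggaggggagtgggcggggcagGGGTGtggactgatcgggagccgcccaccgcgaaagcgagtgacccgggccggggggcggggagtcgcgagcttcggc
Plaur: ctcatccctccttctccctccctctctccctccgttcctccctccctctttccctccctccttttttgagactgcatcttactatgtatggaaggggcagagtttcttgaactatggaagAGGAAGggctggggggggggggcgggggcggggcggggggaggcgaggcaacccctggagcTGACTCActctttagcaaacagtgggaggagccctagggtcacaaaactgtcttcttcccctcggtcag
Both strands were searched, and each count is set beside the share of all 32851 windows of this length that hold the motif. The site of AP-1, TGANTCA, occurred 2 times in F3 and 1 time each in Procr and Plaur, while 6.75% of windows hold it. The pair in F3 begins 146 and 135 bases before the start, that of Procr 154 and that of Plaur 69. The motif that KLF factors bind, CACCC, occurred 3 times in F3 and 1 time each in Procr and Tfpi, while 52.0% of windows hold it. In F3 1 of these matches begins inside the AP-1 match at 135. Plaur also held the ETS motif AGGAAG, which occurs in 29.5% of windows. Tfpi held the core promoter element TATAAA on the opposite strand, as 12.4% of windows do on either strand. The GATA factor motif AGATAA (9.99% of windows) and the NF-kB motif (0.356%) were in none of the 4 windows. A match describes letters in a window and is not a measured binding site.

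All values are deposited linear intensities. Fold changes were taken on log2(intensity + pseudocount), with a pseudocount of 88.49 on set A, 81.23 on B and 53.13 on C, a scale that understates the change of dim probe sets. Testing was limited to probe sets that exceeded the 40th percentile of an array on at least 2 arrays. A difference passed at an adjusted p under 0.05 (limma, Benjamini-Hochberg over all tested probe sets of the array set). An exact permutation test of 1 probe set cannot reach below 0.1 on sets A and C or 0.333 on B.

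Many genes differed between the arrays. On set A 41.0% of tested probe sets passed, 23.1% higher and 17.9% lower in FDC-E. On set B 36.5% passed, 19.4% higher and 17.0% lower, and on set C 18.2% passed, 9.50% higher and 8.73% lower. Of the 3240 calls on set A 56.3% were higher in FDC-E, a share that was 41.5% after quantile normalization and 38.9% after scaling arrays to a common median, which moved the median log2 fold change of set A from 0.02 to -0.07 and -0.09. Markers were set beside the labels. Their lists were chosen with earlier results of these data known, so the counts are no independent check of the labels. Of 9 tested follicular dendritic cell markers 8 rose and none fell, and their summed intensity over 10 markers on set A was 4145 to 4491 in FDC-D and 20130 to 23532 in FDC-E. Markers of other cells moved too. All 14 tested endothelial markers rose, with a median log2 fold change of 2.33, and the sum of 11 of them on set A was 2738 to 2939 in FDC-D and 20277 to 22919 in FDC-E. Of 15 macrophage markers 14 rose (sum of 14 on set A 11481 to 13254 against 25670 to 29147). Of 10 megakaryocyte and platelet markers 6 rose. The sum of 7 of them on set A was 2298 to 2437 against 2560 to 2967. On set B the sum of 3 was 1707 to 1968 against 3188 to 3792, and on set C that of 2 was 268 to 269 against 833 to 1024. Of 5 monocyte markers 1 rose, Fn1, and 4 did not pass (sum of 6 on set A 2471 to 2647 against 3593 to 4044). In that sum Fn1 alone had means of 274.8 in FDC-D and 1547.9 in FDC-E. Of 10 tested fibroblast and reticular markers 8 rose and 1 fell, and of 5 mast cell and basophil markers 2 rose and 1 fell. None of 4 tested hepatocyte markers passed, and Alb was below the filter. Of 9 B cell markers 8 fell, of 9 T cell markers 8 fell, all 5 tested NK cell markers fell, and of 8 neutrophil markers 5 fell. No marker of these lists was at 0 on any array set. A marker that passed the filter through arrays of 1 group alone had to be higher in that group, so the counts are partly fixed by the filter. Among the endothelial markers this held for Cdh5, Cldn5, Tie1, Tek, Emcn and Sox17 (FDC-E). Other lists held such markers too, among them Cxcl13, Coch and Postn (FDC-E) and Cd3d and Il7r (FDC-D). The part of these cells in the results below was not tested, and in such mixed samples a change in the number of cells of a type cannot be told apart from a change in RNA per cell.

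**Figure D1:**
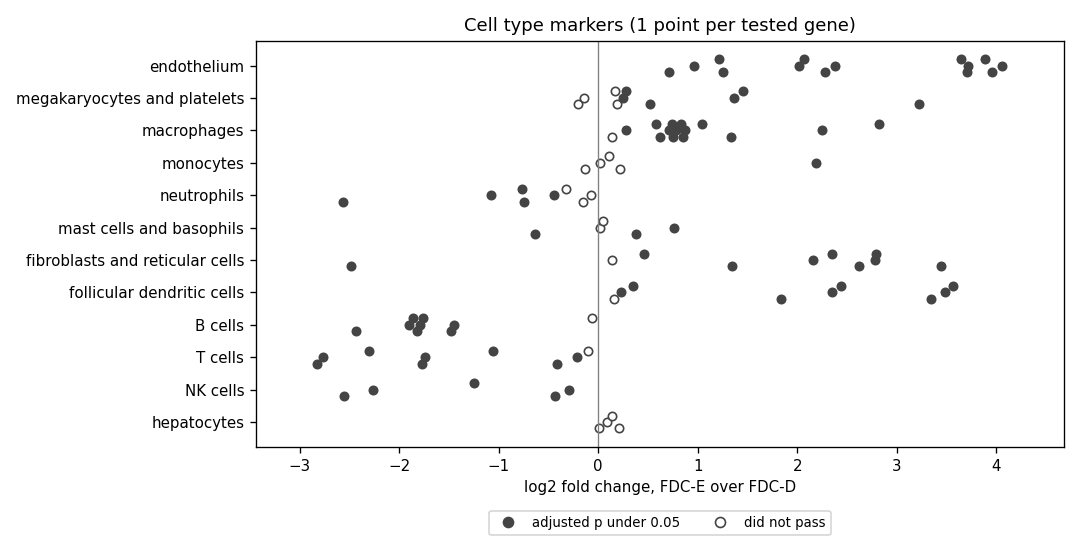
Log2 fold change (x axis, FDC-E over FDC-D) of the tested genes of 12 cell type marker lists (y axis), 1 point per gene at the tested probe set of highest level percentile in its array set, filled where the adjusted p was under 0.05. The 14 endothelial markers all lie above 0.7, while B, T and NK cell markers lie below 0 and the 4 hepatocyte markers lie near 0.

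All 3 anticoagulants rose, and the order of their changes depended on the scale. Each of their probe sets that rose had passed the filter through FDC-E arrays alone and so had to be higher there. Their p-values are therefore no support for that direction. Tfpi inhibits the tissue factor and factor VII complex. Where a gene had several tested probe sets, the one with the highest mean level, as a percentile of its array set, stands for it. At that probe set, on set C, Tfpi had intensities of 62.2 and 62.2 on the FDC-D arrays and 798.8, 834.2 and 904.1 on the FDC-E arrays. Every FDC-E array lay far above both FDC-D arrays. Of all probe sets, 24.5% on set C and 29.8% on set A had every FDC-E array above every FDC-D array. These shares belong beside each such gene below. The means of Tfpi were 62.2 ± 0.0238 (SD, n = 2) and 845.7 ± 53.6 (SD, n = 3), a log2 fold change of 2.96 with a standard error of 0.06 (7.78-fold; limma, adjusted p = 5.36e-08). Of the tested probe sets of set C 99.9% had a smaller one.

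The other Tfpi probe sets did not all follow. On set A Tfpi read 54.9 and 57.6 in FDC-D and 563, 645.4 and 610.7 in FDC-E, a log2 fold change of 2.26 (limma, adjusted p = 2.15e-07). On set B it read 133.4 and 130.9 against 209.3 and 253.5, again without overlap (on set B 31.1% of all probe sets had every FDC-E array above and 31.5% every one below), a log2 fold change of 0.55 (limma, adjusted p = 0.000184). Another Tfpi probe set on set C had 132.9 and 130.3 in FDC-D and 129.2, 149.6 and 139.8 in FDC-E, so the groups overlapped. Its log2 fold change of 0.06 (95% interval -0.07 to 0.19; limma, adjusted p = 0.529) did not pass. The size of the Tfpi rise thus differed between probe sets by more than their intervals, and the set B value, 0.39 to 0.71, lay below that of set A, 2.09 to 2.43. The arrays of the 3 sets carry the same sample numbers and are not separate replicates of Tfpi.

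Thbd, the thrombin-binding receptor of endothelium, was near the bottom of the scale in FDC-D. Its probe set read 24.9 and 28.3 in FDC-D and 353.6, 449.2 and 423.1 in FDC-E. The groups lay far apart, with means of 26.6 ± 2.38 (SD, n = 2) and 408.6 ± 49.4 (SD, n = 3). Thbd rose with a log2 fold change of 2.11 and a standard error of 0.09 (4.31-fold; limma, adjusted p = 8.85e-07). A further Thbd probe set had no value on FDC-E replicate 2. It read 25.1 and 34.4 against 489.7 and 594.7 and rose with a log2 fold change of 2.41 (limma, adjusted p = 2.32e-06, fitted without that array).

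Procr, which presents protein C to the thrombin and thrombomodulin complex, read 133 and 128.2 in FDC-D and 1055, 1224.8 and 1268.3 in FDC-E. All FDC-E arrays were above all FDC-D arrays. Means were 130.6 ± 3.44 (SD, n = 2) and 1182.7 ± 113 (SD, n = 3), and Procr rose with a log2 fold change of 2.53 and a standard error of 0.09 (5.79-fold; limma, adjusted p = 2.95e-07). The ratio of mean intensities was 15.4 for Thbd, 13.6 for Tfpi on set C and 9.06 for Procr, another order than on the log2 scale with a pseudocount. The FDC-D values of Thbd and Tfpi are not shown to lie above background, so no order of the 3 genes is given.

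**Figure D2:**
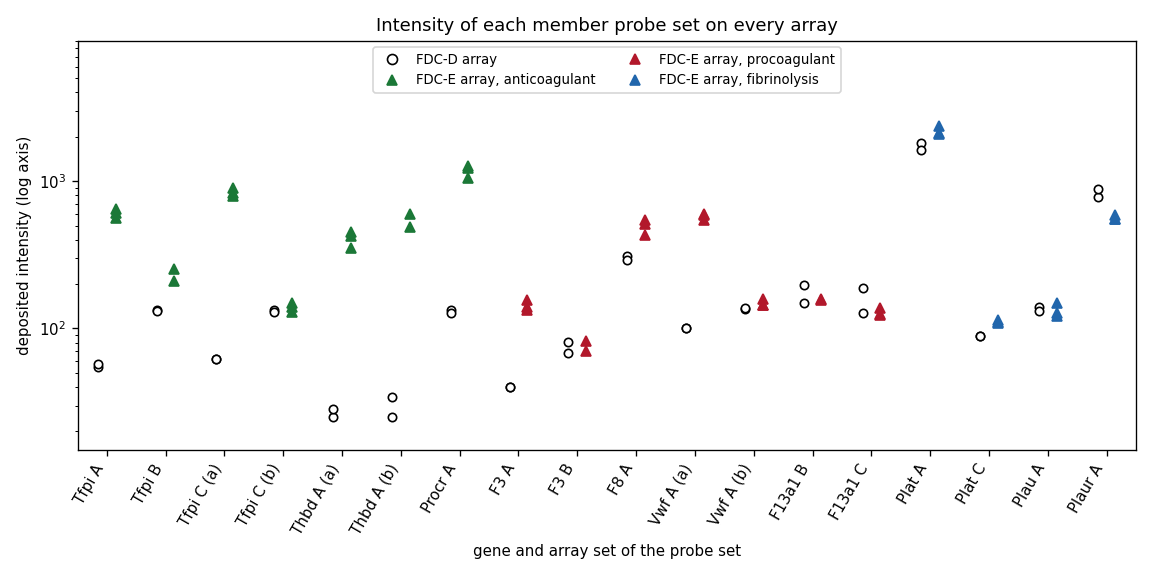
Deposited intensity (y axis, log scale) of the 18 member probe sets (x axis, gene and array set, with a and b for 2 probe sets of a gene on 1 set) on every array, circles for FDC-D and triangles for FDC-E coloured by role. Thbd lies at 24.9 to 34.4 in FDC-D and at 353.6 to 594.7 in FDC-E, whereas the circles and triangles of F13a1 and Plau overlap.

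Among the procoagulants, Vwf and F8 rose, F13a1 did not pass and F3 lay below the filter. Vwf, the carrier of factor VIII, read 100.4 and 101.2 in FDC-D and 589.8, 599.2 and 546.9 in FDC-E. The groups did not overlap, and the FDC-D arrays were nearly equal. This probe set too had passed the filter through FDC-E arrays alone. Means were 100.8 ± 0.592 (SD, n = 2) and 578.7 ± 27.9 (SD, n = 3), a log2 fold change of 1.82 with a standard error of 0.07 (3.52-fold; limma, adjusted p = 4.25e-07). Another Vwf probe set lay below the filter and read 135.5 and 137.6 against 157.7, 144.9 and 145. Its ratio of mean intensities was 1.09 against 5.74 for the tested one, so the 2 Vwf probe sets disagreed. Without overlap between the groups, its log2 fold change in the fit with no filter was 0.08 (95% interval -0.06 to 0.22; limma, adjusted p = 0.419).

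F8, the cofactor that amplifies thrombin formation, read 309.6 and 290 in FDC-D and 546.5, 430.6 and 514.1 in FDC-E. The lowest FDC-E array was above the highest FDC-D array. Means were 299.8 ± 13.9 (SD, n = 2) and 497.1 ± 59.8 (SD, n = 3), and F8 rose with a log2 fold change of 0.59 and a standard error of 0.1 (1.5-fold; limma, adjusted p = 0.00143).

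F3, the membrane protein that starts clotting, was dim throughout. On set A it read 40 and 40.2 in FDC-D and 139.3, 132.5 and 157.2 in FDC-E. All 5 values were below the 40th percentile of their array, which was 176.1 to 198.7, so F3 was not tested. The groups did not overlap, as for 29.8% of all set A probe sets in this direction. The ratio of mean intensities was 3.57. In the fit with no filter, in which 29.9% of set A probe sets passed, F3 had a log2 fold change of 0.85 with a 95% interval of 0.7 to 0.99 (limma, adjusted p = 1.44e-05). The F3 probe set of set B read 67.9 and 81.6 against 82 and 70.5. These overlapped, with a log2 fold change of 0.01 (95% interval -0.12 to 0.15) in the fit with no filter, in which 29.4% of set B probe sets passed.

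F13a1, the fibrin-crosslinking transglutaminase of platelets and monocytes, did not pass on either array set. On set C it read 126.6 and 189.1 in FDC-D and 137.1, 126.3 and 122.9 in FDC-E, and on set B 148.8 and 197.4 against 157.7 and 156.4. In both sets FDC-D replicate 2 was the highest array and FDC-D replicate 1 lay among the FDC-E arrays on set C and below them on set B. The log2 fold change was -0.2 on set C (95% interval -0.45 to 0.05; limma, adjusted p = 0.264) and -0.09 on set B (-0.27 to 0.1; adjusted p = 0.464). On set B it was -0.23 without FDC-D replicate 1 (limma, adjusted p = 0.0505, within a range of 0.0505 to 0.529 over the alternatives). FDC-D replicate 2 decided the set C value. Without it the log2 fold change was 0.02 (limma, adjusted p = 0.917), and without FDC-D replicate 1 it was -0.41 (0.00636).

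The genes of plasmin formation moved little and in different directions. Plat, the tissue-type activator, read 1820.1 and 1619.3 in FDC-D and 2135.2, 2090.6 and 2381 in FDC-E on set A. The groups did not overlap. Means were 1719.7 ± 142 (SD, n = 2) and 2202.3 ± 156 (SD, n = 3), and Plat rose with a log2 fold change of 0.34 and a standard error of 0.09 (1.27-fold; limma, adjusted p = 0.018). On set C a probe set of Plat read 88.8 and 89.4 against 109.5, 113.5 and 110, a log2 fold change of 0.21 (limma, adjusted p = 0.0126). It had passed the filter through FDC-E arrays alone and so had to be higher there. The call of Plat was not stable. On set A it was lost after quantile normalization (limma, adjusted p = 0.0522), after scaling arrays to a common median (0.128), with the replicate block (0.0799), without FDC-D replicate 2 (0.194) and without FDC-E replicate 3 (0.0621), within a range of 0.00236 to 0.194. On set C it was lost with the replicate block (0.1), without FDC-D replicate 2 (0.0517) and without FDC-E replicate 3 (0.0565), within a range of 0.00702 to 0.1.

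Plau, the urokinase gene, lay below the filter. It read 139.7 and 131.9 in FDC-D and 149.3, 126.7 and 121.5 in FDC-E, so the groups overlapped. With no filter its log2 fold change was -0.02 (95% interval -0.19 to 0.14; limma, adjusted p = 0.865). Plaur, the receptor that holds urokinase at the cell surface, was the 1 member that fell. It read 781.5 and 880.3 in FDC-D and 550.8, 552.9 and 592 in FDC-E. Every FDC-E array was below both FDC-D arrays, as for 24.5% of all set A probe sets. Means were 830.9 ± 69.9 (SD, n = 2) and 565.2 ± 23.2 (SD, n = 3), a log2 fold change of -0.49 with a standard error of 0.08 (1.41-fold lower; limma, adjusted p = 0.0014).

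**Figure D3:**
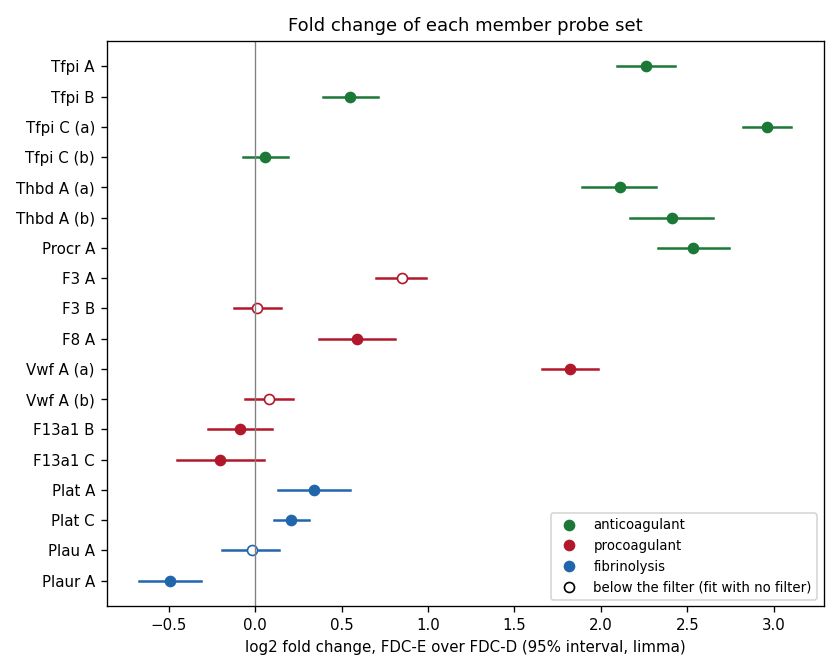
Log2 fold change of FDC-E over FDC-D (x axis) with its 95% interval for each member probe set (y axis), coloured by role, with open circles for the 4 probe sets below the filter, taken from the fit with no filter. The main probe sets of Tfpi, Thbd and Procr lie between 2.11 and 2.96, F8 lies at 0.59 and Vwf at 1.82, and Plaur is the 1 gene whose interval lies below 0.

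The roles are set side by side as a description. Of the 18 probe sets 14 were tested, with 10 higher, 1 lower and 3 not passing. On set A 7 rose and 1 fell of 8 tested, on B 1 rose of 2, and on C 2 rose of 4, to be read beside the shares of all probe sets given above. Of the 14, 8 passed the filter through FDC-E arrays alone and so had to be higher there. These include the probe sets that stand for Tfpi, Thbd, Procr and Vwf, whereas F8 and F13a1 on set C had arrays of both groups above the percentile. The counts and medians by role are therefore no support for a direction or for a difference between roles. By gene, with 1 probe set for each, 3 of 3 anticoagulants rose, 2 of 3 tested procoagulants rose and 1 did not pass, and of 2 tested fibrinolysis genes 1 rose and 1 fell. The median log2 fold change was 2.53 for the anticoagulants (2.11 to 2.96), 0.59 for the procoagulants (-0.2 to 1.82) and -0.07 for the fibrinolysis genes (-0.49 to 0.34), against 0.02 over all tested probe sets of set A, 0 of B and 0.02 of C. With F3 included in the fit with no filter, at its set A probe set (0.85), the procoagulant median was 0.72. The set B probe set of F3 had 0.01 in that fit and was not used, so the median depends on this choice.

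By replicate, each against the same mean of FDC-D, the anticoagulant median was 2.38, 2.58 and 2.63 in replicates 1, 2 and 3, and the procoagulant median was 0.71, 0.42 and 0.63. The difference of the medians was 1.94 with an SD of 0.25 over the FDC-E replicates, and it carries no p because the members were chosen with results known. The replicates share the FDC-D mean and the members, so they are not separate support for it. The gap was not a gap between every pair of genes. The interval of Thbd, 1.89 to 2.32, overlapped that of Vwf, 1.66 to 1.98, and the set B probe set of Tfpi had a log2 fold change of 0.55 beside 0.59 for F8. With all tested probe sets in place of 1 per gene, the medians were 2.26 for the anticoagulants, 0.25 for the procoagulants and 0.21 for fibrinolysis, the last turning its sign. Among all tested probe sets of set A, 98.9% had a smaller log2 fold change than Procr, 98.1% than Thbd, 97.5% than Vwf, 88.3% than F8, 81.6% than Plat and 9.02% than Plaur.

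Genes that work beside the members were taken from 6 lists. The counts of each list are to be read beside the shares over all tested probe sets. These were 41.0% passing on set A, 36.5% on B and 18.2% on C. In the protein C pathway, Pros1, the gene of protein S, the cofactor of activated protein C, rose. Pros1 read 54.2 and 47.2 in FDC-D and 400.6, 459.3 and 501.8 in FDC-E, a log2 fold change of 1.96 (3.89-fold; limma, adjusted p = 1.13e-06). It had passed the filter through FDC-E arrays alone and so had to be higher there, and its p-value is no support for that direction. Proc, the gene of protein C itself, which the liver makes, had 238.6 and 232.4 against 251.2 and 224.8, with no value on FDC-E replicate 2, and its log2 fold change of 0.01 did not pass (limma, adjusted p = 0.939). Of 10 anticoagulant proteins and inhibitors with a probe set, 4 were tested, of which 2 rose and none fell. The other riser was Anxa5, an annexin that covers clot-promoting phospholipid, with a log2 fold change of 1.03. Of its probe sets on set C, 1 rose (1.38) and the others had -0.02 and 0.14 and did not pass. The median of the 4 was 0.59.

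Most clotting factors of the plasma lay below the filter. Of 13 clotting factor and fibrinogen genes 5 were tested, of which 1 rose and none fell, with a median log2 fold change of -0.09. F5, the cofactor of factor X, read 137.8 and 141.1 in FDC-D and 252, 252.8 and 209.7 in FDC-E and rose with a log2 fold change of 0.52 (limma, adjusted p = 0.00118). This only riser of the list had passed the filter through FDC-E arrays alone and so had to be higher there. Its p-value is no support for that direction. F7, the partner of tissue factor, had a log2 fold change of -0.11, F10 0.1, Fga, a fibrinogen chain, -0.1 and Kng1, a kininogen, -0.09, and none of these passed.

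Among thrombin receptors and their G proteins, 4 of 6 tested genes rose and none fell, with a median log2 fold change of 0.37. F2r, the main thrombin receptor, read 1511.7 and 1536.4 in FDC-D and 2761.8, 2841.3 and 2970.1 in FDC-E. It rose with a log2 fold change of 0.87 (1.83-fold; limma, adjusted p = 3.8e-05), and its other probe sets rose with 0.47 and 1.59. The F2r probe set with 1.59 had passed the filter through FDC-E arrays alone. Gna12, a G protein subunit, rose with a log2 fold change of 1.08 and Gnaq with 0.4. F2rl3, the thrombin receptor of mouse platelets, rose with 0.34 (limma, adjusted p = 0.00554). Its call was lost without FDC-D replicate 1 (0.0664) or 2 (0.0564), after quantile normalization (0.0508) and after scaling arrays to a common median (0.0562). F2rl2 and Gna13 had 0.03 and 0.01 and did not pass.

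Around plasminogen, the cell-surface receptors split. There were 6 tested genes, with 2 risers, 1 that fell and a median log2 fold change of 0.14. Anxa2 and S100a10, which together bind plasminogen and the tissue-type activator, rose with log2 fold changes of 1.44 and 0.38. Anxa2 read 950.8 and 1073.8 in FDC-D and 2844, 2848.2 and 2985 in FDC-E (limma, adjusted p = 3.48e-06). Plgrkt, a membrane receptor for plasminogen, fell, from 1097.9 and 1089 to 734.1, 737.3 and 672.4, a log2 fold change of -0.56 (limma, adjusted p = 0.000494). Serpine2, a protease inhibitor gene, and the matrix gene Thbs1 had no probe set with that single gene symbol and could not be analysed.

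The list for partners, storage and cleavage of Vwf had 9 tested genes, with 6 risers, 1 that fell and a median log2 fold change of 0.28. Mmrn2, an endothelial multimerin, read 245.9 and 252.8 in FDC-D and 2796.8 and 2528.7 in FDC-E on set B, a log2 fold change of 3.05 (8.29-fold; limma, adjusted p = 1.72e-09). Cd63, a membrane protein of the granules that store Vwf and of lysosomes, rose with 2.98. Cd63 had passed the filter through FDC-E arrays alone and so had to be higher there. Itga2b, a chain of the platelet receptor for fibrinogen and Vwf, rose with 1.46. Rab27a, a GTPase of secretory granules that endothelium and cytotoxic lymphocytes use, fell from 366.9 and 326 to 94.8 and 89.7, a log2 fold change of -1.3 (limma, adjusted p = 1.78e-07). Rab27a had passed the filter through FDC-D arrays alone and so had to be lower in FDC-E. Its p-value is no support for that fall. Subunits of the platelet glycoprotein complex that binds Vwf, which lie outside the naming rule and were chosen after their values were seen, rose less. Gp1ba, another subunit of that complex, had no probe set here. Gp1bb, which had passed the filter through FDC-E arrays alone, had 0.52, Gp9 0.28 and Gp5 0.25. The last 2 lost their call without FDC-D replicate 1 (limma, adjusted p = 0.0811 for Gp9 and 0.166 for Gp5), without FDC-D replicate 2 (0.194 and 0.109), after quantile normalization (0.171 and 0.126) and after scaling arrays to a common median (0.181 and 0.132), and Gp9 also with the replicate block (0.0631) and without FDC-E replicate 3 (0.0551).

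Genes that export, mature or clear the factors were the last list. Of 8 tested 3 rose and none fell, with a median of 0.24. Mcfd2, a subunit of the receptor that carries factors V and VIII out of the endoplasmic reticulum, read 190 and 196.7 in FDC-D and 1116.4, 1286.2 and 1275.1 in FDC-E on set A, a log2 fold change of 2.22 (limma, adjusted p = 4.05e-07). Its probe set on set C had -0.02 and did not pass, and Lman1, its partner, had 0.11 and did not pass. Stab2, a scavenger receptor of sinusoidal endothelium that takes up Vwf, rose with 2.04, from 754.6 and 776 to 3312.7 and 3503.4 on set B (limma, adjusted p = 1.04e-08). Vkorc1, which recycles vitamin K for the carboxylation of clotting factors, rose with 0.83. For Stab1, a relative of Stab2, the probe set that stands for it, on set B, had 0.03 and did not pass, while that on set A rose with 2.67, so its call depends on the probe set. The Stab1 probe set of set A had passed the filter through FDC-E arrays alone.

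**Figure D4:**
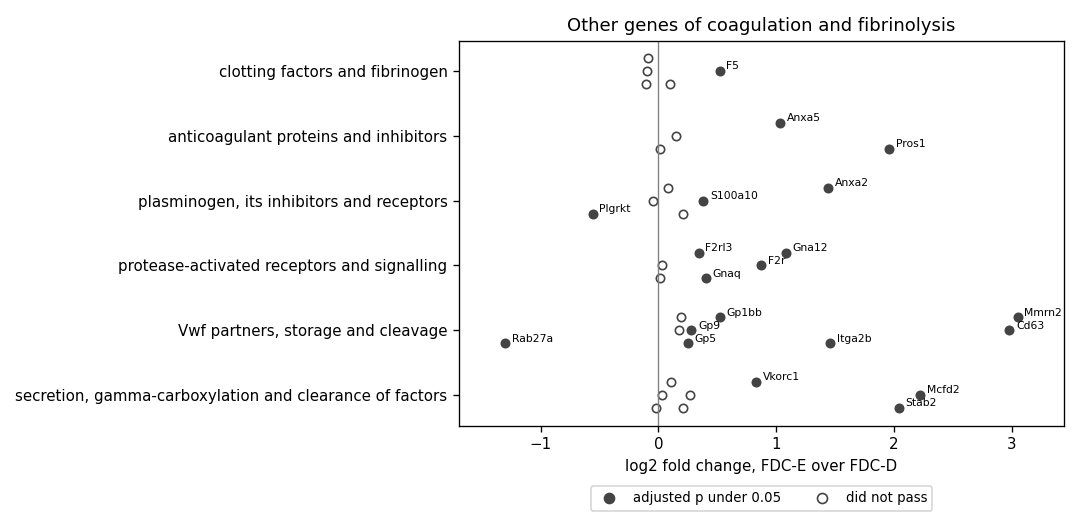
Log2 fold change of FDC-E over FDC-D (x axis) of the tested genes of 6 coagulation lists (y axis), at the tested probe set of highest level percentile of each, filled and named where the adjusted p was under 0.05. Mmrn2 and Cd63 lie near 3, Pros1 at 1.96, and Rab27a at -1.3 and Plgrkt at -0.56 are the 2 named genes below 0.

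Genes with the most similar profile were sought for Tfpi, Vwf and F13a1 by the distance between mean-centred log2 intensities over the 5 arrays of the set. For Tfpi on set C these were Arhgap23 (distance 0.151) and Jam2 (0.238), with log2 fold changes of 2.87 and 2.82. For Vwf on set A they were Crip2 (0.0796) and Ier3 (0.112), with 1.87 and 1.84. For F13a1 on set C they were Nolc1 (0.0545) and Thoc1 (0.0568), with -0.22 and -0.21, neither of which passed. These distances rest on 5 arrays that share their libraries and groups.

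**Figure D5:**
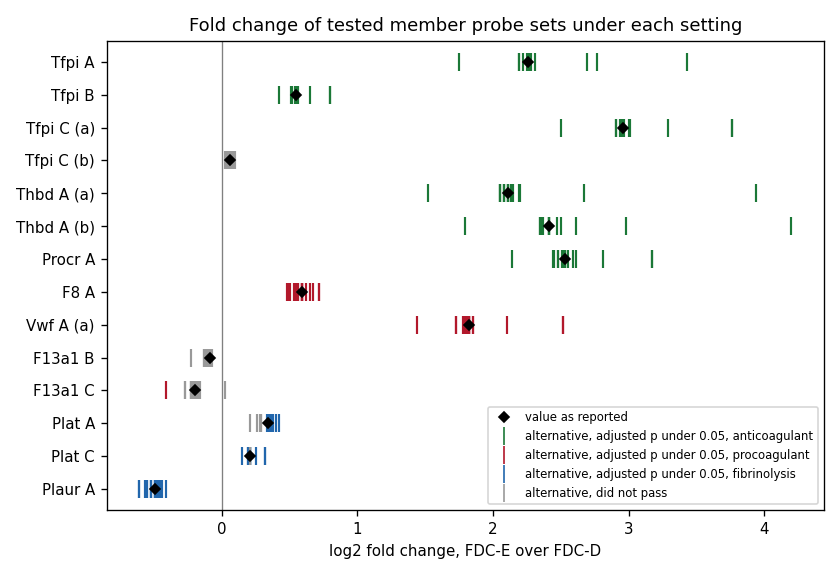
Log2 fold change (x axis) of the 14 tested member probe sets (y axis) as reported (black diamonds) and under each alternative setting (ticks, coloured by role where the adjusted p was under 0.05 and grey where not). The ticks of Tfpi A, Thbd, Procr, Vwf, F8 and Plaur stay coloured and on 1 side of 0, while grey ticks appear for Plat and a tick of F13a1 on set C lies at 0.02.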

How the data were processed

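The deposited tables hold 1 linear intensity value per probe set and array; no source used here says how the authors summarised, corrected and scaled these intensities. There were 12488, 12477 and 11934 probe sets on sets A, B and C. FDC-E replicate 2 of set A had no value for 893. No value was below 0. Within a set, array means trimmed by 2% differed by factors of 1.08, 1.03 and 1.02, inside the 10% tolerance, and no rescaling was done. Precision is limited by the number of arrays.

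Probe sets were named from the array annotation, with symbols updated through Entrez identifiers to the gene table of GRCm38.p6. Each set was fitted alone with limma 3.58.1 in R 4.3.3 (lmFit, then eBayes with an intensity trend, two-sided) without its 66 array controls. The pseudocount was the 20th percentile of positive values. A gene is represented by its tested probe set of highest mean level, as a percentile of its array set. The text names all members, up to 4 passing genes of each pathway list by size, and F2r, Pros1, Serpine2 and Thbs1; 1 further gene of that rule is not reported here. Members and lists were chosen with earlier results of these data known. Scripts were tested on simulated data. The alternatives were other pseudocounts, filters, scalings, prior, array weights, adjustment, the replicate block and leaving out each array.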

Additional observations from a re-analysis of the deposited data

How the results depend on the processing

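Over 225 alternative values of the 14 tested member probe sets, 215 kept their direction and their side of the threshold, 8 lost their call, all of them of Plat, and 1 gained it and 1 turned its sign, both of F13a1 on set C (-0.41 without FDC-D replicate 1 and 0.02 without FDC-D replicate 2). Settings in which a probe set did not meet the filter gave no value and are not among the 225. Under the stricter filter this held for Plat on set C, F13a1 on set B and the further Thbd probe set. That Thbd probe set was left out because its missing value on FDC-E replicate 2 counted as not above the cut-off. Of 327 values of 20 passing pathway genes 313 kept their call, 14 lost it and none turned. The choice of pseudocount moved sizes. The anticoagulant median was 2.81 with the pseudocount divided by 2, 2.14 with double, 3.17 with a floor in its place and 3.76 with none, the last an alternative chosen after seeing the data. The difference from the procoagulant median was 1.64 with double, 2.45 with the floor and 3.04 with none. With all tested probe sets the medians were 2.26 for anticoagulants, 0.25 for procoagulants and 0.21 for fibrinolysis, the last reversed from -0.07. That median was -0.17 after quantile normalization and -0.2 after scaling arrays to a common median. The cause of these shifts was not tested beyond the construction of each scale.

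Leaving out 1 array at a time, the probe sets that passed numbered 2028 to 3670 on set A, 1978 to 2491 on B and 808 to 1315 on C, and the member probe sets that passed 6 to 8, 0 to 1 and 1 to 3. A lone array was assumed to vary like the other group. On set B the single passing member, Tfpi, fell below the filter without FDC-E replicate 2 or 3, since 1 remaining array cannot meet the rule of 2. Under the stricter filter 1 member probe set passed on C, in place of 2. With the replicate block, 865 probe sets in place of 1341 and 1 member probe set passed on C, and 2812 in place of 3240 passed on A. Same-numbered samples deviated together with correlations of 0.03 and 0.06 on A, 0.15 on B and -0.31 and -0.15 on C. With 2 FDC-D arrays in a set, their deviations from the group mean mirror each other. These correlations therefore cannot decide whether same-numbered samples share a preparation, and the labels give only the number. The replicate block changed no member call but those of Plat. Set B shares 1 number between the groups and could not be blocked. No depth is given for arrays, and values near the lower end, such as F3 and Thbd in FDC-D, carry an unknown background.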
